A study of Mus musculus with 13 samples.

Results

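The genes of de novo lipogenesis, the route by which cells build fatty acids from glucose carbon and acetate, were examined in interscapular brown adipose tissue (iBAT) of mice fed a high-fat diet (HFD). The 10 genes were chosen by name, as Acly, Acss2, Acaca, Acacb, Fasn, Me1, Thrsp, Srebf1, Mlxipl and Pnpla3, out of 42416 gene identifiers with a read count. Bulk RNA sequencing covered 13 libraries. Of these, 8 are labelled iFAXLKO, from mice homozygous for floxed Axl that also carried 1 copy of an inducible Cre, Adipoq-CreERT2. The other 5 are labelled WT, from floxed-Axl littermates without Cre, so these controls are not animals with an unmodified Axl gene. Both groups received tamoxifen every 3 weeks, ate HFD ad libitum and lived at room temperature. The paper's figure legends give the mice of these libraries as female. The age at dissection is not given in the labels. The Cre was carried on a bacterial artificial chromosome (BAC) with the Adipoq regulatory region, which is active in adipocytes, while the counts come from all cells of the depot. Nothing in the labels names the animal behind a library, so p-values measure the spread between these libraries.

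De novo lipogenesis starts in the cytosol from acetyl-CoA, which ATP citrate lyase (Acly) makes from citrate and acetyl-CoA synthetase (Acss2) makes from acetate. Acetyl-CoA carboxylases (Acaca and Acacb) turn it into malonyl-CoA, and fatty acid synthase (Fasn) joins these units into palmitate with reducing power that malic enzyme (Me1) helps to supply. The transcription factors SREBP1 (gene Srebf1) and ChREBP (gene Mlxipl) are known to drive these genes in response to insulin and glucose, and in brown fat fatty acid synthesis runs beside fatty acid oxidation.

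Promoter sequence is shown for 3 of the genes, because Fasn and Acly ran together from library to library in the data below while Mlxipl, the gene of a factor known to drive them, moved much less. Each run holds the 130 bases directly before a RefSeq start site (GRCm38.p6), 5' to 3'. Capitals mark CCAAT boxes (CCAAT, read on both strands) in Fasn, GC boxes (GGGCGG, both strands) in Acly and an E-box (CACGTG) in Mlxipl.
Fasn, chr11:120824548-120824677 (minus strand): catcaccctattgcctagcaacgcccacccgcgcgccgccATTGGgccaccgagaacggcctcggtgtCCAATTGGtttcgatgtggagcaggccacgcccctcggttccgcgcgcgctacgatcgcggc
Acly, chr11:100528001-100528130 (minus strand): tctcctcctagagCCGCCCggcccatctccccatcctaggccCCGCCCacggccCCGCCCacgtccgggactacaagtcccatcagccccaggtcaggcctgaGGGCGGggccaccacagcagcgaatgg
Mlxipl, chr5:135089760-135089889 (plus strand): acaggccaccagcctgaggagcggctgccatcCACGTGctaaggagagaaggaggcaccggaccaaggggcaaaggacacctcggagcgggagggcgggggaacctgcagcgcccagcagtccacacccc
Fasn held 3 CCAAT matches, at positions -90, -62 and -59 from the start, the last of which overlap on opposite strands. Acly held 4 GC boxes, at -117, -88, -76 and -27. In windows of 250 bases before the start, a CCAAT box was found in 9 of the 14 windows of the 10 genes, against 33.8% of 32851 mouse windows. A GC box was found in 7 of the 14 windows, against 32.7%. These windows belonged to 8 and 6 genes. A gene can have more than 1 window, so counts of genes are not on the scale of these shares. The E-box was found in 1 window, that of Mlxipl, against 6.02% of all windows. The core letters of a sterol regulatory element, TCACNCCAC, were found in 1 window, another start of Mlxipl, against 1.05%. These are matches of letters and not binding sites, and a missing match says only that the letters were not in the window.

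Libraries held 22.44 to 32.6 M counts, and 0.807% to 2.85% of a library's counts fell on the 10 genes. For Axl, the gene targeted by the Cre, iFAXLKO libraries had no lower level than WT libraries. Its log2 fold change was 0.25 (SE 0.13, edgeR adjusted p 0.699), so every direction given here rests on the labels. This is RNA counted over the whole gene in all cells of the depot. The paper shows a western blot of AXL protein in the mature fraction of inguinal fat, which these counts do not test. Adipoq, whose region the Cre transgene carries, was higher by 0.66 on the log2 scale (SE 0.11, edgeR adjusted p 0.0118). All 8 brown adipocyte markers passed the filter on low counts. Their levels differed widely, from Prdm16, a regulator of brown fat identity, at 26.3 ± 7.17 CPM (SD, n = 8) in iFAXLKO and 23.4 ± 5.76 CPM (SD, n = 5) in WT, to Ucp1, the uncoupling protein of thermogenesis, at 5608 ± 1123 CPM (SD, n = 8) in iFAXLKO and 6378 ± 916 CPM (SD, n = 5) in WT. CPM stands for the count of a gene per M counts in its library, after scaling with TMM factors. Of the 8 brown adipocyte markers, 7 had a log2 fold change below 0, beside 7158 of 13360 genes tested, and Prdm16 was above 0. The median of these markers was -0.16, and their lowest edgeR adjusted p was 0.474.

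None of the 10 lipogenic genes passed the test between the groups. The count of genes called, at an adjusted p under 0.05 in edgeR's quasi-likelihood test over 13360 genes, was 0 of 10, beside 0.127% of all genes tested (17 genes). At an unadjusted p under 0.05 it was again 0 of 10, beside 7.38% of all genes, and DESeq2 and limma-voom also called 0. The CPM ranges of the groups overlapped for all 10 genes, and ranges that did not overlap were found for 0.434% of genes tested. The median log2 fold change, iFAXLKO over WT, was -0.10 for the 10 genes and -0.01 for all genes tested. Of the 10 genes, 8 had values below 0 and 2 above, beside 7158 and 6202 of 13360 genes tested. Limma-voom with sample quality weights turned this around, with 8 values above 0, 2 below (Acacb and Mlxipl) and a median of 0.21, so these data do not fix a direction for the 10 genes. Adjusted p-values ran from 0.862 to 0.993. In a bulk sample, fewer cells of a type and less RNA per cell cannot be told apart.

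**Figure D1:**
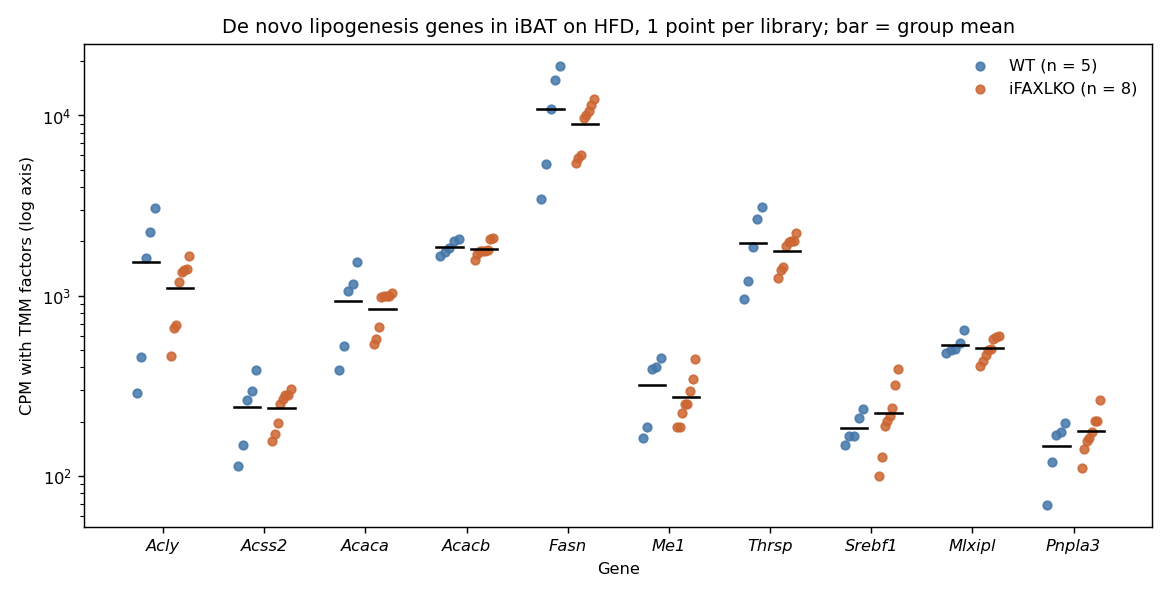
Level of each lipogenic gene in each library (y axis, CPM with TMM factors, log axis), with 1 point per library, blue for WT (n = 5) and orange for iFAXLKO (n = 8), and a bar at each group mean. The groups overlap for every gene, WT points spread further than iFAXLKO points for Acly, Acaca and Fasn, and Acacb and Mlxipl vary least.

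Acly (ENSMUSG00000020917, chromosome 11, 100476353 to 100528000, GRCm38) makes cytosolic acetyl-CoA from citrate. In WT replicates 1 to 5 its level was 2242.8, 1617.9, 288.5, 457.6 and 3063.3 CPM. The iFAXLKO libraries had a lowest value of 466, a median of 1277 and a highest of 1657 CPM. Thus both the highest and the lowest library were WT, 10.6-fold apart, and all iFAXLKO values lay inside the WT range. The means were 1104 ± 435 CPM (SD, n = 8) and 1534 ± 1179 CPM (SD, n = 5). The log2 fold change of -0.47 (SE 0.52, 95% interval -1.60 to 0.65) had an edgeR adjusted p of 0.904. On the scale of mean log2 CPM the groups differed by -0.09 (exact permutation p 0.887, 2-sided). Without WT replicate 3 the log2 fold change of Acly was -0.72, and without WT replicate 5 it was -0.06.

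Acss2 (ENSMUSG00000027605, chromosome 2, 155517948 to 155585724), which makes acetyl-CoA from acetate, had the same order of WT libraries at its extremes. WT replicates 1 to 5 were at 265.2, 296.7, 113.3, 148.5 and 387.4 CPM. The iFAXLKO libraries started at 156.3 CPM and had a median of 259.7 CPM, with the highest 1.94-fold above the lowest. WT replicate 3 was again the lowest library and WT replicate 5 the highest. The means of 239 ± 55.7 CPM (SD, n = 8) and 242 ± 112 CPM (SD, n = 5) gave a log2 fold change of -0.02 (SE 0.26, 95% interval -0.59 to 0.55, edgeR adjusted p 0.993). Acss2 lies across Ggt7, Gss and Acss2os on the opposite strand, and the strand setting of the counts is not given in the sources used here, so reads of these genes cannot be told apart where they overlap. Acaca, Me1 and Mlxipl also overlap annotated genes on the opposite strand. Acly, Acaca, Srebf1, Me1 and Pnpla3 overlap others on the same strand.

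The acetyl-CoA carboxylases behaved differently from each other across libraries. Acaca (ENSMUSG00000020532, chromosome 11, 84129672 to 84401651) encodes ACC1, whose malonyl-CoA feeds fatty acid synthesis in the cytosol. Its level in WT replicates 1 to 5 was 1162, 1062, 386, 524 and 1541 CPM. In iFAXLKO it ran from 537 through a median of 987 to 1032 CPM, inside the WT range. The means were 849 ± 214 CPM (SD, n = 8) and 935 ± 476 CPM (SD, n = 5), with a log2 fold change of -0.14 (SE 0.30, 95% interval -0.78 to 0.50, edgeR adjusted p 0.965). Acacb (ENSMUSG00000042010, chromosome 5, 114146535 to 114250761) encodes ACC2 at the mitochondrial outer membrane, whose malonyl-CoA restrains fatty acid entry into mitochondria. Its WT values were 2056, 1756, 1657, 1833 and 2025 CPM, and its iFAXLKO values ran from 1573 through a median of 1771 to 2083 CPM. Acacb was the steadiest of the 10 genes, with only 1.32-fold between its lowest and highest library against 4.00-fold for Acaca. Its log2 fold change was -0.04 (SE 0.09, edgeR adjusted p 0.968), and the 95% interval of -0.23 to 0.15 was the narrowest of the 10.

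Fasn (ENSMUSG00000025153, chromosome 11, 120805846 to 120824547) was the most abundant of the 10 genes. WT replicates 1 to 5 were at 15686, 10925, 3454, 5356 and 18827 CPM. The iFAXLKO libraries ran from 5451 through a median of 9857 to 12366 CPM. All iFAXLKO libraries lay between the lowest WT library, replicate 3, and the WT replicates 1 and 5. The means were 8944 ± 2751 CPM (SD, n = 8) and 10850 ± 6556 CPM (SD, n = 5), and the log2 fold change was -0.28 (SE 0.37, 95% interval -1.07 to 0.51, edgeR adjusted p 0.925). On the scale of mean log2 CPM the groups differed by -0.08 (exact permutation p 0.874). Without WT replicate 5 the log2 fold change of Fasn was 0.01, and without WT replicate 3 it was -0.49.

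Me1 (ENSMUSG00000032418, chromosome 9, 86581371 to 86695953), the cytosolic malic enzyme that yields NADPH, was at 390, 405, 163, 187 and 450 CPM in WT replicates 1 to 5. In iFAXLKO it ran from 187 through a median of 252 to 446 CPM. The highest iFAXLKO library, replicate 2, came close to the highest WT library, and the groups overlapped over nearly their whole range. The log2 fold change was -0.22 (SE 0.27, 95% interval -0.81 to 0.37, edgeR adjusted p 0.918), with means of 274 ± 87.9 CPM (SD, n = 8) and 319 ± 134 CPM (SD, n = 5). It was -0.37 without WT replicate 3 and -0.06 without WT replicate 5.

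Thrsp (ENSMUSG00000035686, chromosome 7, 97412938 to 97417730) encodes Spot 14, a thyroid hormone-responsive protein of lipogenic tissues. Its WT values were 1868, 3107, 955, 1211 and 2650 CPM, and its iFAXLKO values ran from 1251 through a median of 1945 to 2217 CPM. WT replicate 2, and not replicate 5, was the highest library for this gene. The log2 fold change was -0.14 (SE 0.25, 95% interval -0.67 to 0.40, edgeR adjusted p 0.954).

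The genes of the transcription factors did not pass the test either. Srebf1 (ENSMUSG00000020538, chromosome 11, 60199089 to 60222581) was at 148, 235, 166, 166 and 211 CPM in WT replicates 1 to 5. In iFAXLKO it ran from 100 through a median of 209 to 392 CPM, so that here the iFAXLKO libraries held both extremes. The means were 223 ± 95.5 CPM (SD, n = 8) and 185 ± 36.4 CPM (SD, n = 5), with a log2 fold change of 0.27 (SE 0.28, 95% interval -0.33 to 0.86, edgeR adjusted p 0.895). It was 0.10 without iFAXLKO replicate 6 and 0.38 without iFAXLKO replicate 5. Mlxipl (ENSMUSG00000005373, chromosome 5, 135089890 to 135138382) was at 545, 502, 504, 483 and 646 CPM in WT and ran from 410 through a median of 505 to 601 CPM in iFAXLKO. Its log2 fold change was -0.07 (SE 0.11, 95% interval -0.30 to 0.17, edgeR adjusted p 0.947). Counts per gene cannot separate the isoforms of Srebf1 or of Mlxipl, and neither measures the active nuclear protein. Srebf1 also overlaps Rai1 on the opposite strand.

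Pnpla3 (ENSMUSG00000041653, chromosome 15, 84167837 to 84187236), a lipid droplet protein known as a target of both transcription factors, had a difference above 0 that did not pass the test. WT replicates 1 to 5 were at 169, 176, 69.2, 120 and 196 CPM, and iFAXLKO libraries ran from 111 through a median of 169 to 265 CPM. Of the iFAXLKO libraries 6 of 8 lay above the WT mean. The means of 177 ± 46.9 CPM (SD, n = 8) and 146 ± 51.0 CPM (SD, n = 5) gave a log2 fold change of 0.28 (SE 0.24, 95% interval -0.22 to 0.79, edgeR adjusted p 0.862, exact permutation p of the mean log2 difference 0.269). The log2 fold change was 0.12 without WT replicate 3 and 0.41 without WT replicate 5.

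**Figure D2:**
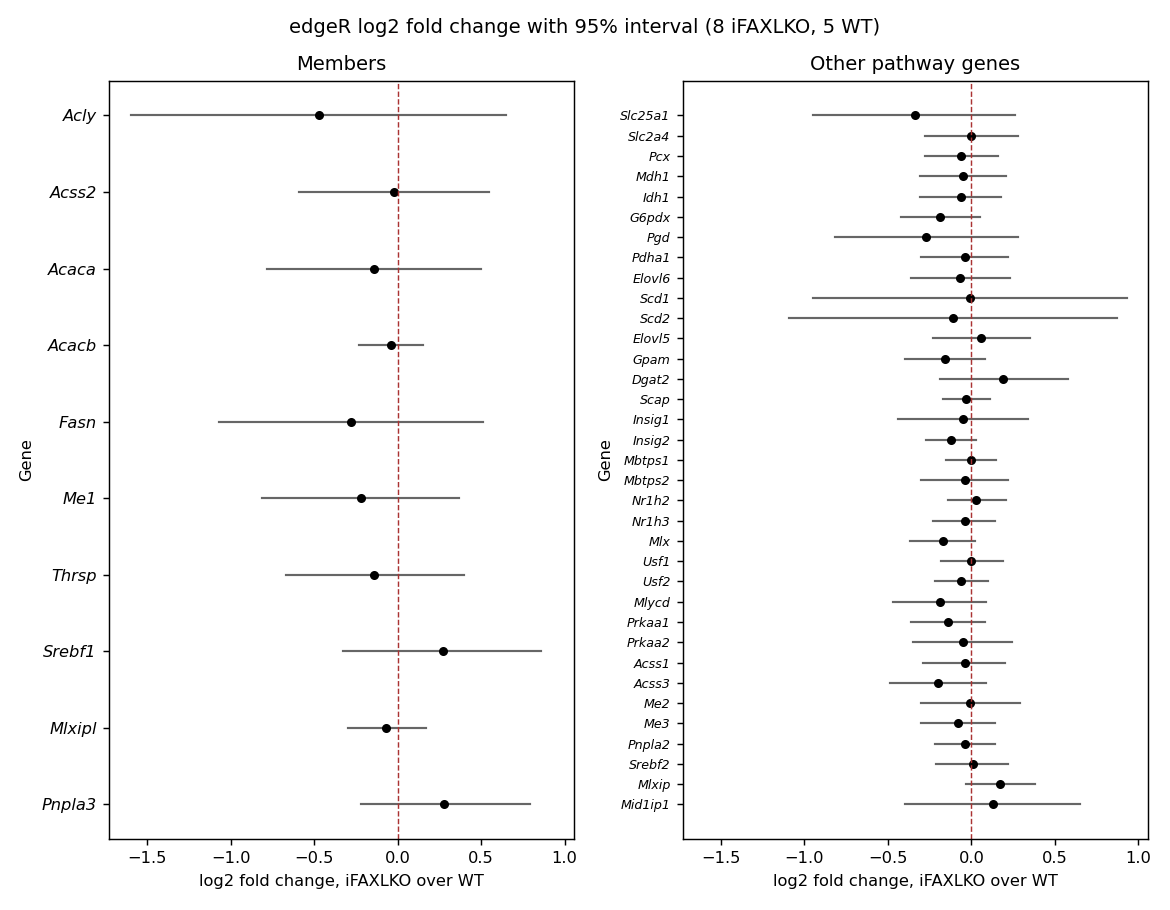
Log2 fold change, iFAXLKO over WT, on the x axis for the 10 lipogenic genes (left) and 35 other genes of the pathway (right), as points with 95% intervals from the edgeR fit. Every interval crosses 0, and the interval of Acly, from -1.60 to 0.65, is the widest on the left.

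Per kilobase of exon, the order of the 10 genes over the 13 libraries put Fasn (mean 884 RPKM) and Thrsp (845 RPKM) first. Acly followed with 240 RPKM and Acacb with 190 RPKM, then Pnpla3 with 107, Mlxipl with 94.1 and Me1 with 75.7 RPKM. Acaca (51.7 RPKM), Srebf1 (37.0 RPKM) and Acss2 (23.6 RPKM) were lowest. Neighbours in this order lay closer than the larger of their SDs in each group, except at the steps from Thrsp to Acly and from Acacb to Pnpla3. For example, Fasn was at 817 ± 251 and Thrsp at 813 ± 164 RPKM in iFAXLKO (SD, n = 8), and Acly at 209 ± 82.4 and Acacb at 189 ± 18.3 RPKM. Acacb, the steady carboxylase, thus stood above Acaca, at 49.7 ± 12.5 RPKM in iFAXLKO, on this scale. The length used was the union of all annotated exons of a gene, such as 10163 bases for Acss2 and 17074 for Acaca. A gene whose main transcript is shorter than this union is understated, so the order depends in part on the annotation.

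For each of the 10 genes, the larger of the group SDs exceeded the difference of the group means in CPM. The coefficient of variation (CV, SD over mean) of CPM in WT was 76.8% for Acly, 60.4% for Fasn, 50.9% for Acaca, 46.9% for Thrsp and 46.2% for Acss2. In iFAXLKO the same genes had 39.4%, 30.8%, 25.2%, 20.2% and 23.4%. For 7 of the 10 genes the CV was larger in WT. The lowest WT library lay below the lowest iFAXLKO library for 7 genes, and the highest WT library lay above the highest iFAXLKO library for 7. The exceptions in CV were Srebf1 (42.9% in iFAXLKO and 19.7% in WT), Acacb (9.69% and 9.22%) and Mlxipl (14.2% and 12.2%). Among 749 genes in the same range of mean level the median CV was 15.4% in WT and 10.4% in iFAXLKO, and the median of the 10 genes was 44.0% and 25.8%. Summed over the 10 genes, WT replicates 1 to 5 were at 24532, 20082, 7755, 10485 and 29996 CPM, and iFAXLKO libraries ran from 10677 through a median of 17374 to 20548 CPM. The wider WT spread did not pass a test. The mean absolute deviation of the log2 summed level from its group median was 0.30 in iFAXLKO and 0.64 in WT, with an exact permutation p of 0.164 (2-sided, chosen after seeing the data).

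The extremes fell on the same few libraries. WT replicate 5 was the highest of all 13 libraries for 6 of the 10 genes, iFAXLKO replicate 6 for 3 (Acacb, Srebf1 and Pnpla3) and WT replicate 2 for Thrsp. WT replicate 3 was the lowest for 7 genes, and the lowest library was iFAXLKO replicate 1 for Acacb, replicate 5 for Srebf1 and replicate 8 for Mlxipl.

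Accordingly, most of the genes moved together from library to library. With group means subtracted, log2 CPM over the 13 libraries was compared with that of Fasn for the other 9 genes, with Benjamini-Hochberg adjustment over these 9 relations and permutation p-values of 100000 resamples. Acly had a Pearson r of 0.98 (Spearman rho 0.91, permutation adjusted p 4.50e-05) and Acaca of 0.98 (rho 0.91, permutation adjusted p 6.00e-05). Acss2 followed with 0.96 (rho 0.86, permutation adjusted p 4.50e-05), Thrsp with 0.88 (rho 0.78, permutation adjusted p 2.70e-04), Me1 with 0.87 (rho 0.86, permutation adjusted p 2.70e-04) and Pnpla3 with 0.82 (rho 0.82, permutation adjusted p 0.00102). These 6 relations passed and 3 did not. Those were Mlxipl with 0.55 (rho 0.55, permutation adjusted p 0.0661), Acacb with 0.53 (rho 0.45, permutation adjusted p 0.0712) and Srebf1 with 0.11 (rho 0.16, permutation adjusted p 0.719).

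**Figure D3:**
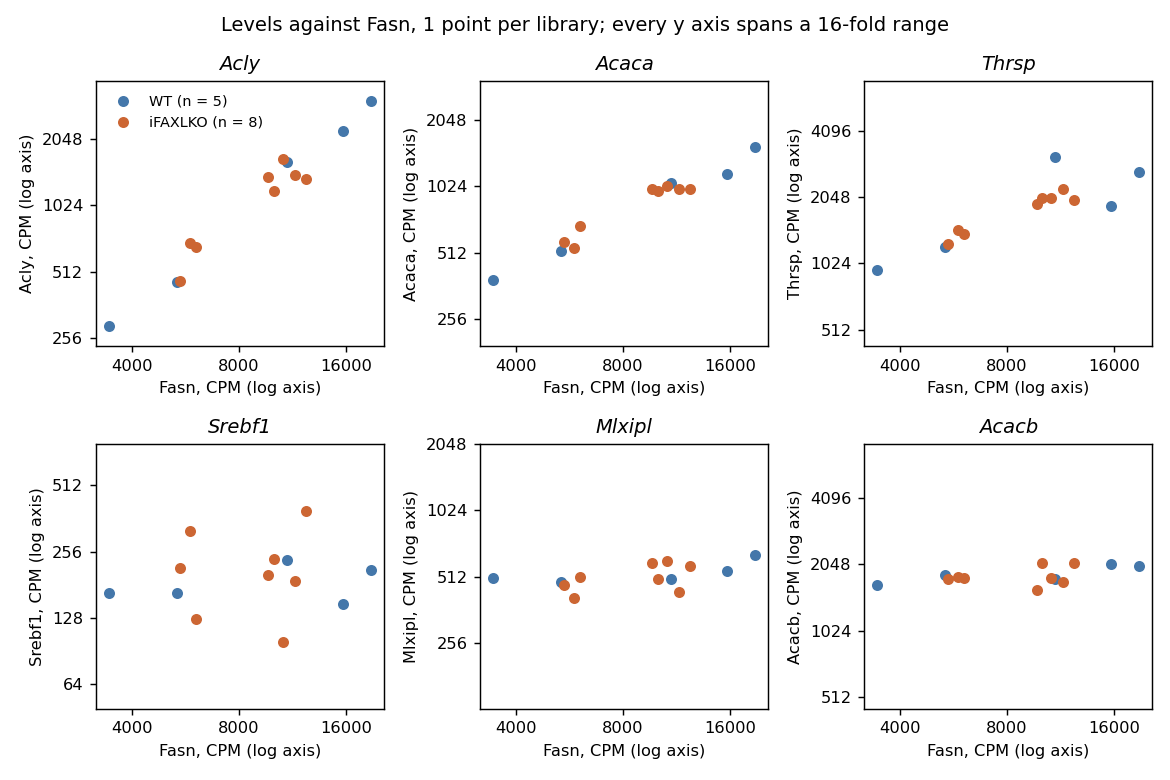
Level of 6 lipogenic genes (y axes, CPM, log axes that each span the same fold range) against Fasn (x axes, CPM, log axes), 1 point per library, blue for WT (n = 5) and orange for iFAXLKO (n = 8). Acly, Acaca and Thrsp climb with Fasn while Srebf1, Mlxipl and Acacb do so little, and a gap without libraries lies between 6059 and 9683 CPM of Fasn.

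The libraries were also divided by their level of Fasn. In CPM, steps of nearly the same size lay between 12366 and 15686 and between 15686 and 18827. Whether the libraries form separate sets was not tested. Fasn left its widest gap between 6059 and 9683 CPM, with 5 libraries below it (3 iFAXLKO and 2 WT) and 8 above it (5 iFAXLKO and 3 WT). Within the 8 libraries above the gap, r with Fasn was 0.81 for Acly (exact permutation p 0.0187) and 0.79 for Acaca (exact permutation p 0.0303), both with an adjusted p of 0.136. There it was 0.53 for Acacb, 0.51 for Pnpla3, 0.46 for Acss2, 0.38 for Mlxipl, 0.18 for Me1, 0.07 for Srebf1 and -0.34 for Thrsp. By the adjusted exact permutation p, 0 of the 9 relations passed within these 8 libraries, those of Acly and Acaca included. This division was chosen after seeing the data and by Fasn itself. Such a choice narrows the range of Fasn, which can by itself lower r and leave fewer relations that pass. The values within the 8 libraries therefore cannot show where the covariation lay. The 5 libraries below the gap are too few for a correlation of their own. When the 2 libraries farthest from the Fasn median were left out, r was 0.97 for Acly, 0.96 for Acaca, 0.91 for Acss2, 0.79 for Me1, 0.78 for Thrsp and 0.64 for Pnpla3, where it had been 0.82. Library numbers in the labels fall into a lower range of 7 and an upper range of 6 libraries. Within these, r was 0.99 and 0.97 for Acly, 0.98 and 0.99 for Acaca, 0.96 and 0.96 for Acss2, 0.83 and 0.98 for Thrsp, 0.93 and 0.90 for Me1, and 0.94 and 0.61 for Pnpla3. For Mlxipl it was 0.15 and 0.89. In the upper range Pnpla3 no longer passed (exact permutation adjusted p 0.257), while Mlxipl did (exact permutation adjusted p 0.0425).

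Srebf1 stood apart from the genes its product is known to drive. Over all 45 pairs among the 10 genes, a family chosen after seeing the data, 20 passed an adjusted permutation p under 0.05, and Srebf1, Mlxipl and Acacb took part in 0 of them. The highest r of Srebf1 was 0.56, with Pnpla3, and its r with Mlxipl was -0.20. In iFAXLKO replicate 5, Srebf1 was at its lowest, 100 CPM, while Acly was at its highest in that group, 1657 CPM. In iFAXLKO replicate 6, Srebf1 and Fasn were both at the highest of that group, 392 and 12366 CPM.

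**Figure D4:**
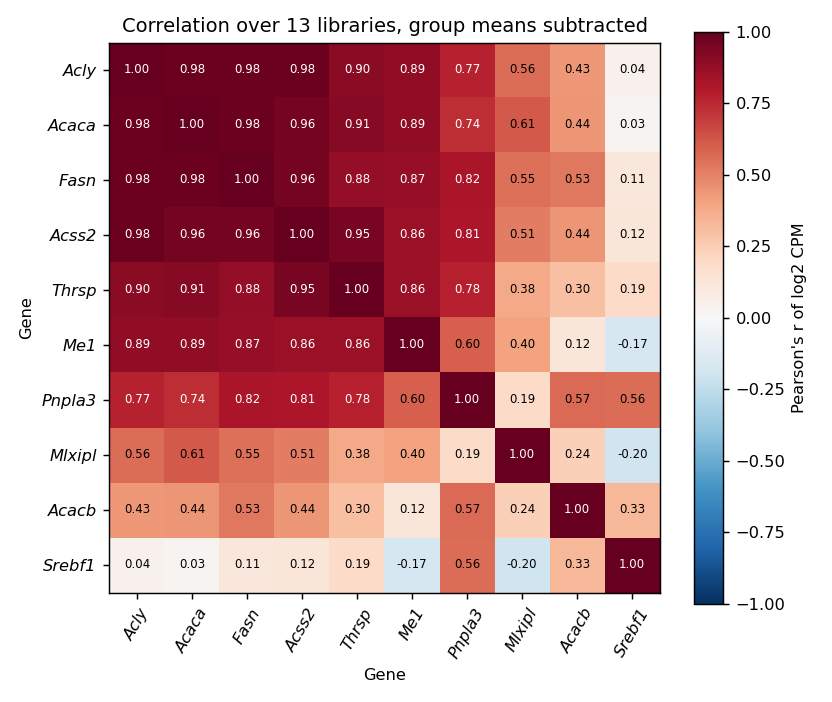
Pearson r of log2 CPM between each pair of the 10 lipogenic genes over 13 libraries with group means subtracted, as colour from blue (-1) to red (1) and as printed values. Acly, Acaca, Fasn, Acss2, Thrsp and Me1 form a dark block with r of 0.86 or more, and Srebf1 is pale against each of them.

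Of the other genes of the pathway, 36 were listed and 35 tested, and Pnpla5 fell under the filter on low counts. The count called was 0 of 35, beside 0.127% of all genes tested (17 genes). At an unadjusted edgeR p under 0.05 it was 0, beside 7.38% of all genes. DESeq2 and limma-voom also called 0 of these, beside 67 and 24 of all genes. Their median log2 fold change was -0.05, with 28 values below 0 and 7 above, beside 7158 and 6202 of 13360 genes tested. Several of these genes moved together across libraries, so their signs are not independent of each other. Slc25a1, the carrier that exports citrate from mitochondria, had -0.34 (SE 0.28, edgeR adjusted p 0.855), and with it all 8 genes that supply carbon or NADPH had values at or below 0 (median -0.06). Among the 6 genes that act on the product, Scd1, the main desaturase, had -0.01 (SE 0.43, edgeR adjusted p 0.997) and the elongase Elovl6 -0.07 (SE 0.14, edgeR adjusted p 0.963). Among 13 regulators, median -0.05, the SREBP escort Scap had -0.03, its anchor Insig1 -0.05, the LXRα gene Nr1h3 -0.04 and Mlx, the partner of ChREBP, -0.17 (SE 0.09, edgeR adjusted p 0.717). Of the 8 relatives of the 10 genes that were tested, median -0.02, Srebf2 had 0.01, Mid1ip1, the relative of Thrsp, 0.13 and the mitochondrial acetyl-CoA synthetase Acss1 -0.04.

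Scd1 shared the pattern of the lipogenic genes across libraries. Its WT values were 13981, 7826, 2465, 4056 and 11563 CPM in replicates 1 to 5, with WT replicate 3 again the lowest library. In iFAXLKO it ran from 3943 through a median of 6758 to 15356 CPM. As a description with no test, each gene was compared with the score of the 10 genes, their mean standardised log2 CPM, over the 13 libraries with group means subtracted. Among the genes most like it were Scd2, a further desaturase (r 0.96), Sorcs2, a sortilin-family receptor (0.96), Gbe1, the glycogen branching enzyme (0.95), and Pdk1, a kinase of pyruvate dehydrogenase (0.94). Sorcs2 was also the widest of these, with 37.1-fold between its lowest and highest library, against 1.96-fold for Gbe1. Of the pathway, Scd1 had an r of 0.92, Pdha1, a subunit of pyruvate dehydrogenase, 0.91, Slc25a1 0.90, Pgd of the pentose phosphate route 0.87 and Elovl6 0.85. At the other end stood Nr1h3 (-0.45) and Mlycd, which breaks down malonyl-CoA (-0.64). All these values share library depth and the gaps between the same libraries, and were not tested.

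Markers of other cells were read beside the 10 genes. Skeletal muscle markers, led by Acta1, Myh4 and Ckm and summed over 10 genes, ran from 2.55 to 4339 CPM in iFAXLKO and from 17.5 to 2982 CPM in WT. Against the muscle score, the score of the 10 lipogenic genes had an r of 0.07 (rho 0.27, permutation adjusted p 0.812 over 3 relations). With the 2 libraries farthest from the median muscle score left out it was 0.59 (permutation adjusted p 0.166). Within the lower and upper ranges of library numbers it was 0.64 and -0.06 (exact permutation adjusted p 0.393 and 0.993). Fibroblast markers ran from 536 to 1185 CPM in iFAXLKO and from 387 to 694 CPM in WT, led by Col3a1, Col1a2 and Dcn. All 8 had a higher mean in iFAXLKO at an unadjusted edgeR p under 0.05, beside 7.38% of genes tested in either direction, and 0 passed the adjusted limit. The lipogenic score had an r of -0.20 with the fibroblast score (rho -0.22, permutation adjusted p 0.812) and of -0.11 with the brown adipocyte score (rho -0.12, permutation adjusted p 0.812). Within the lower and upper ranges these were 0.18 and -0.47 for fibroblasts and -0.21 and -0.01 for brown adipocytes. Macrophage markers, led by Lyz2, C1qa and C1qb, ran from 125 to 236 CPM in iFAXLKO and from 102 to 150 CPM in WT, and had 7 of 7 genes at an unadjusted edgeR p under 0.05, higher in iFAXLKO, and 0 past the adjusted limit. The part of these cells in the levels of the lipogenic genes was not tested beyond these values.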

How the data were processed

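RNA of 13 iBAT samples (8 iFAXLKO, 5 WT) was sequenced, and the deposited files hold raw counts, 1 whole number for each of 42416 Ensembl identifiers, made by the authors. The submitters' processing notes list bcl2fastq 2.20, fastp 0.20.0, STAR 2.7.4a, DESeq2 and GRCm38.p6, whereas the methods name Trim Galore, hisat2 2.1.0 and GRCm38. The counting tool and strand setting are not given in the sources used here. The labels give polyadenylated RNA and the methods ribosomal depletion, and which applies was not settled.

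The filter asked for over 1 CPM in 5 or more libraries and left 13360 genes. TMM factors were applied, and groups were tested in edgeR 4.0.16 (R 4.3.3) with robust quasi-likelihood F tests, 2-sided, group as the only term, and Benjamini-Hochberg adjustment over all genes tested. The SE is the size of the log2 fold change divided by the square root of F. Log2 CPM used a prior count of 2. Exact permutation tests ran over all 1287 label assignments (smallest p 7.77e-04), and correlations over 100000 resamples (smallest p 1.00e-05) or, under 9 libraries, all orders. Exon lengths and gene positions came from GENCODE M21, and promoter windows from RefSeq (GRCm38.p6). The procedure was tested on simulated data. Within a group, the lowest chi-square per degree of freedom between libraries was 15.3, so each library counted as 1 replicate.

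Total counts of 22.44 to 32.6 M put the limit that a count of 0 allows, 3 counts, between 0.092 and 0.134 CPM, for counting error only. Alternatives were DESeq2 1.42.0, limma 3.58.1 (voom with sample quality weights), other scaling factors, other filters, a replicate block and each library left out. The members and gene lists were chosen with earlier results of these data known. Named besides the 10 genes were Axl, Adipoq, 10 preset pathway genes and relatives, at most 3 markers per list and the 5 genes most like the score, of which 1 is not reported here. Other genes (Scd2, Cyp2e1, Prdm16, Retn, Pgd, Pdha1, Mlycd, Pnpla5) were named after their values were seen.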

Additional observations from a re-analysis of the deposited data

How the results depend on the processing

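The 10 lipogenic genes had 0 calls, and so did the other pathway genes, under DESeq2, limma-voom, other scaling factors, other filters, the replicate block and each library left out. The count of called genes over the whole table was 17, with 67 in DESeq2, 7 with the replicate block and 14 to 19 with 1 library left out. Signs of single genes were less stable. Limma-voom with sample quality weights turned the log2 fold change of Acly to 0.29, Acaca to 0.21, Fasn to 0.15, Thrsp to 0.22, Acss2 to 0.26 and Me1 to 0.09. The replicate block turned Acaca to 0.01, Acss2 to 0.03 and Srebf1 to -0.19. That fit draws its group difference only from replicate numbers that both groups share. The iFAXLKO replicates 6 to 8 have no WT library of the same number and add nothing to that difference. Upper quartile factors gave Acss2 0.01 and the difference of mean log2 CPM 0.08. The cause of these turns was not tested. With 1 library left out, Acaca ran from -0.32 to 0.12, Fasn from -0.49 to 0.01, Thrsp from -0.29 to 0.09, Mlxipl from -0.10 to 0.01 and Acss2 from -0.18 to 0.21. The lowest came without WT replicate 3, except Mlxipl without iFAXLKO replicate 1, and the highest without WT replicate 5, except Thrsp without WT replicate 2. The median of the 10 genes, -0.10, was 0.21 in limma-voom and ran from -0.24 without WT replicate 3 to 0.01 without WT replicate 5. Me1 was 0.00 with the replicate block. The r of the lipogenic score was -0.06 with muscle in the upper range of library numbers and 0.18 with fibroblasts in the lower range.

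Replicate numbers are shared by 5 pairs of libraries. The deviations of same-numbered libraries correlated at 0.39, 0.42, 0.19, 0.18 and -0.61, and 4 of 10 libraries correlated best with their own number. These values do not settle whether same-numbered libraries are pairs. The main test did not treat them as pairs, and the replicate block is given as an alternative. With 5 WT libraries that span 10.6-fold for Acly, intervals as wide as -1.60 to 0.65 limit what a comparison of this size can show.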

Other observations

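Markers of further cell types were read beside the lipogenic genes, as values with no explanation. White adipocyte markers summed to 42.6 to 109 CPM in iFAXLKO and 21.1 to 110 CPM in WT, with 4 of 7 listed genes above the filter on low counts and 0 past the adjusted edgeR limit. Of these 4, only Retn had an unadjusted edgeR p under 0.05, beside 7.38% of genes tested. It was higher in iFAXLKO (log2 fold change 0.87, SE 0.27, edgeR adjusted p 0.490). Endothelial markers summed to 634 to 1010 CPM and 531 to 797 CPM, with 0 of 6 genes past the limit. Of 5 hepatocyte markers, read because the liver also runs this pathway, Cyp2e1 was above the filter, at 82.7 ± 39.6 CPM (SD, n = 8) in iFAXLKO and 50.6 ± 29.4 CPM (SD, n = 5) in WT, and carried nearly all of the list's sum. The defining markers were at or near 0. Ttr was at 0 in all libraries, and the group means of Alb, Apoa1 and Fgb were at most 0.104 CPM. The 4 Y-linked genes listed were at 0 in all 13 libraries.

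Elovl3, an elongase used as a brown adipocyte marker, was at 125 ± 45.3 CPM (SD, n = 8) in iFAXLKO and 203 ± 25.2 CPM (SD, n = 5) in WT. Its log2 fold change of -0.69 (SE 0.21) had an edgeR adjusted p of 0.474. It was named after its value was seen, and no other of the 8 brown adipocyte markers had an unadjusted edgeR p under 0.05.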
